A study of Rattus norvegicus with 16 samples.

Results

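The 36 genes described here mark the blood vessels of the sciatic nerve or carry the signals that guide them. They were taken as a fixed list of gene symbols, 36 of the 31038 genes in the deposited tables, and all 36 had an entry. By role, 14 mark endothelial cells, 6 encode receptors of endothelial cells, 8 encode angiogenic ligands, and 8 mark mural cells, the pericytes and smooth muscle cells that wrap vessels. RNA from the rat sciatic nerve was sequenced in 16 libraries that form 8 pairs. Purified Schwann cells and whole nerve were each taken from uncrushed animals and on days 3, 5 and 7 following crush at postnatal day 18 and none carried a transgene or mutation. Crush was done under isoflurane anaesthesia with carprofen given for pain, and uncrushed animals had no sham operation, so effects of surgery and drug cannot be told apart from those of crush. The labels give postnatal day 18 for every sample, uncrushed ones included. If crushed rats were that age at crush, they were older when sampled, and age cannot be told apart from crush either. Schwann cells were purified by immunopanning, in which dishes coated with antibody to CD45 and to Thy1 take out macrophages and fibroblasts and Schwann cells are then held by the antibody O4, while whole nerve was never dissociated. At least 10 nerves were pooled per sample of purified cells, and crushed nerves were sampled distal to the injury. Nothing in the labels says whether replicates came from separate litters or days, so p-values measure the spread between these samples only.

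Endothelial cells line every vessel, and in peripheral nerve those of the endoneurium are sealed by tight junctions to form the blood-nerve barrier. Vegfa binds Kdr and Flt1 to drive the growth of endothelial cells, while Angpt1 and Angpt2 compete for the receptor Tek, Angpt1 as a stabilising agonist and Angpt2 as a ligand that can block it. Pdgfb from endothelium recruits pericytes through Pdgfrb. After crush, vessels of the distal nerve become leaky and remodel, and Schwann cells lose their myelin program and become repair cells.

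The DNA just upstream of 3 endothelial members is shown because these genes are set side by side in the whole nerve results, where Tie1 and Eng rose and Kdr fell at day 3. Each window is the 250 bases before the annotated start in RefSeq, assembly GRCr8, read 5′ to 3′ along the gene, with each GGAA core (or TTCC, its reverse complement), the letters at the heart of ETS factor sites, in capitals. Tie1 lies on the minus strand at chr5:137304982-137305231, Eng on the plus strand at chr3:36332029-36332278 and Kdr on the plus strand at chr14:32571813-32572062.
Tie1: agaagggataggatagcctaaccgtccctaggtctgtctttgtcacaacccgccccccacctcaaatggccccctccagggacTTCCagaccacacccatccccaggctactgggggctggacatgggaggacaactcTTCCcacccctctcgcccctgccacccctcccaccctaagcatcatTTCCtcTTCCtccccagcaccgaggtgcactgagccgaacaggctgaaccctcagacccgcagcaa
Eng: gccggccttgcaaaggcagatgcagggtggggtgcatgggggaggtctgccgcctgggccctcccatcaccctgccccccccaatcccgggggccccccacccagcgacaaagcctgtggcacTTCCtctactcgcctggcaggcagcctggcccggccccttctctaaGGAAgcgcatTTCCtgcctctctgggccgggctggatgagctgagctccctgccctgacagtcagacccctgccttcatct
Kdr: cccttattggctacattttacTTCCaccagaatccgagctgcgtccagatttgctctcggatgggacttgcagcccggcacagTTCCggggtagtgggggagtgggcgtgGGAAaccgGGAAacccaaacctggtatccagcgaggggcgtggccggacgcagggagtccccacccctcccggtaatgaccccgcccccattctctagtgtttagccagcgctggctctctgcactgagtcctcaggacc
Tie1 and Kdr held 4 cores each and Eng 3, and such a core stood in 93.2% of all 33469 windows of this length, with a median of 3.0 matches. Of the 36 members 23 had a window, 25 windows in all, and 24 of these held a core. The letters ACGTG (or CACGT), the centre of the hypoxia response element, were present in 3 member windows, those of Mmrn2, Clec14a and Cnn1, against 16.6% of all windows, and an exact CArG box, the element of smooth muscle genes, in 0 against 1.5%. Of the contractile members, Acta2 and Cnn1 had a window and Tagln and Myh11 had none. At a share of 1.5%, 25 windows are too few for 0 CArG boxes to mean absence. These matches describe letters in a window, not bound sites.

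Totals of expected counts ran from 12334355 to 27562637 in the Schwann cell libraries and from 10555067 to 20203912 in whole nerve. A level below is a TMM-scaled FPKM, meaning the expected count per kilobase of effective length and scaled to the library size after TMM adjustment of all 16 libraries, a scaling that lines up the bulk of genes rather than the library totals. The deposited FPKM, scaled to each total, put changes in whole nerve higher by a median of 0.41 on the log2 scale at each of days 3, 5 and 7. In Schwann cells the median offset was up to 0.05 either way. Changes are log2 fold changes ± SE from the quasi-likelihood test of edgeR, with p adjusted over all genes tested (Benjamini-Hochberg), and a gene is said to rise or fall where that p was under 0.05. In whole nerve, a smaller number of cells of a type and less RNA per cell cannot be told apart. With 2 libraries against 2, an exact permutation test of a single gene cannot go below p = 0.33.

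**Figure D1:**
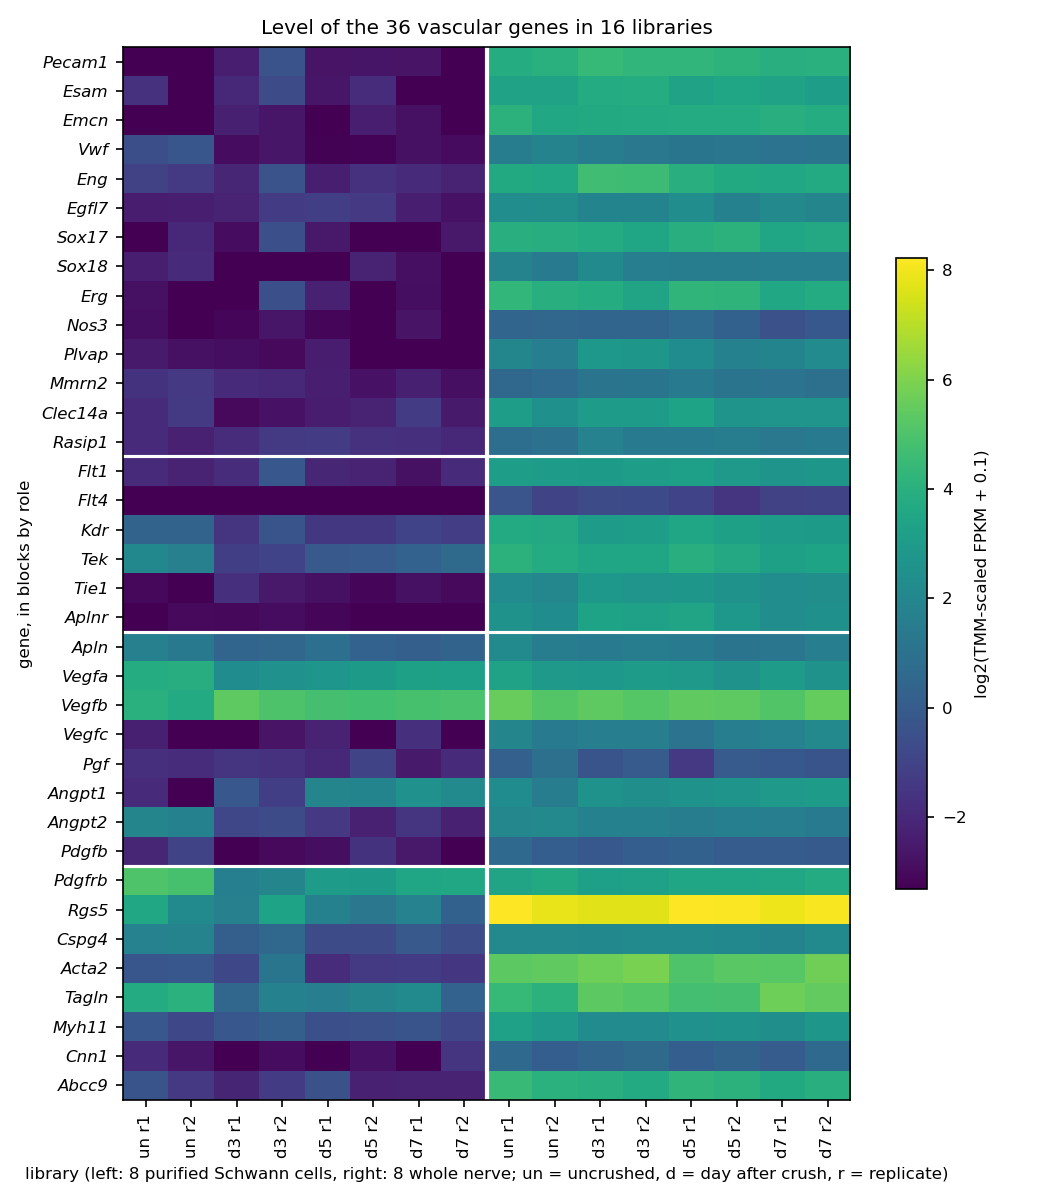
Level of each of the 36 genes (rows, in blocks of endothelial identity, endothelial receptors, ligands and mural genes) in each of the 16 libraries (columns), as log2 of TMM-scaled FPKM plus 0.1. The endothelial blocks are dark in the 8 Schwann cell libraries and bright in whole nerve, whereas Vegfa, Vegfb and Pdgfrb are bright in both.

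Whole nerve was set against purified Schwann cells to ask how much vascular RNA remained after immunopanning. All 20 endothelial members were lower in Schwann cells at each of the 4 time points, with median differences of -5.79 in uncrushed samples and -5.36, -6.48 and -6.63 at days 3, 5 and 7. With genes at 0 counts in Schwann cells (1 to 4 of the 20) set to their bound, the medians were -5.47, -5.21, -6.38 and -6.20. Over all 36 members, 30 were lower and 2 higher in uncrushed Schwann cells (35.3% and 29.1% of the 16829 genes tested). At days 3, 5 and 7 the counts were 35, 34 and 33 lower and 0 higher, where 32.8%, 28.4% and 28.7% of genes were called lower and 24.5%, 23.2% and 22.4% higher. Pecam1, the endothelial adhesion molecule CD31, lay at 14.3 and 15.8 in uncrushed whole nerve and had no count in either uncrushed Schwann cell library, which makes it at least 263-fold lower against a floor of 3 counts over the group. Flt4, the receptor of lymphatic endothelium, had 0 counts in all 8 Schwann cell libraries and was at 0.245 to 0.73 in whole nerve. The marker Cdh5 (VE-cadherin), no member of the list, lay between 46.5 and 64.8 in whole nerve and between 0.0647 and 1.43 in Schwann cells. These floors cover counting error only.

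Summed over the 20 endothelial genes, whole nerve held 133 to 179 TMM-scaled FPKM and Schwann cells 2.08 to 7.48. The Schwann cell sums were 1.20% to 4.74% of the whole nerve mean at the same time. The highest 3 belonged to the 2 uncrushed libraries and to replicate 2 of day 3. Their make-up differed: in uncrushed Schwann cells Tek lay at 4.09 and 3.20, Kdr at 1.16 in both libraries and Vwf at 0.576 and 0.758, while Pecam1 was at 0 and Erg at 0.0426 and 0. In replicate 2 of day 3, Pecam1 had 36 counts against 3 in replicate 1, Erg 48 against 0, Sox17 35 against 1 and Flt1 134 against 18. Replicate 2 was higher for 14 of the 20 genes, and its macrophage markers were higher too, with a sum of 12.6 TMM-scaled FPKM against 2.43. The counts of these 4 genes come from libraries of unequal total, 27562637 in replicate 2 and 15806398 in replicate 1.

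**Figure D2:**
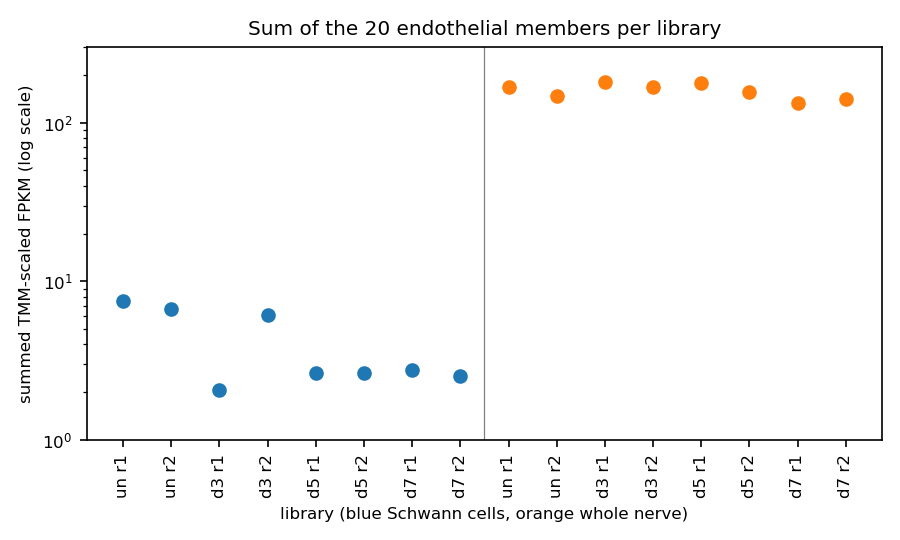
Sum of the TMM-scaled FPKM of the 20 endothelial members in each library, on a log axis, with Schwann cells in blue and whole nerve in orange. Schwann cell libraries lie between 2.08 and 7.48 and whole nerve between 133 and 179, and replicate 2 of day 3 (6.09) stands above replicate 1 (2.08).

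Among ligands and mural genes the gap was uneven. Of 8 ligands, 5 were lower in uncrushed Schwann cells, and 7, 6 and 6 at days 3, 5 and 7, while the 8 mural genes were all lower at days 3 and 5. DESeq2 did not call Pgf at day 3 or Apln at day 5. Upper quartile scaling did not call Apln at day 5 or Vegfb at day 7. Omission of a library could lose Pdgfb in uncrushed samples, Pgf at days 3 and 7, Apln at day 5 and Vegfb at day 7. Vegfa was higher in uncrushed Schwann cells, at 14.3 and 14.7 against 9.98 and 7.58 in whole nerve (log2 difference 0.70 ± 0.17, adjusted p = 0.003), and lower at day 3 (-0.56 ± 0.17, adjusted p = 0.0129), the latter a call lost without Schwann cell replicate 1 (adjusted p = 0.105) or whole nerve replicate 2 of that day (adjusted p = 0.11). Vegfb, a relative that binds Flt1 but not Kdr, was the most abundant ligand per length in all but 1 library of the 16, with Vegfa just above it in replicate 2 of uncrushed Schwann cells. Pdgfrb, the PDGF receptor of pericytes and fibroblasts, was 2.66-fold higher in uncrushed Schwann cells, at 32.5 and 29.2 against 10.5 and 12.8 (log2 difference 1.41 ± 0.13, adjusted p = 2.39e-07). Rgs5, a pericyte marker that Pdgfrb accompanies in vessels, behaved otherwise, at 4.43 and 12.0 in uncrushed Schwann cells and 229 and 300 in whole nerve, so the ratio of Pdgfrb to Rgs5 was 0.366 to 11.0 in Schwann cell libraries and 0.0349 to 0.0559 in whole nerve. For Angpt2, Cspg4, Tagln and Apln the uncrushed tissues differed by -0.23 ± 0.25, -0.30 ± 0.16, -0.33 ± 0.33 and -0.38 ± 0.26, none of which passed the test, while deposited TPM, which is not TMM-scaled, put the mean of all 4 higher in Schwann cells.

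To ask how the angiogenic signals of Schwann cells changed after injury, each day was compared with uncrushed cells. Here 19 of the 36 members had enough counts to be tested, and 17 did not. The filter also admits genes that are high in a single group, so counts over those tested are no tally of the list. At day 3, 2 rose and 10 fell (26.9% and 25.7% of 14961 genes tested). At day 5 it was 2 and 10 (29.0% and 25.6%), and at day 7 it was 2 and 9 (25.0% and 21.9%). The same 2 ligands, Angpt1 and Vegfb, made up the rises on each day in this fit. The rises at day 3 depend on it, being 6 in the fit of all 16 libraries, 5 without a count filter, 5 without replicate 1 of day 3 and 3 by DESeq2. With crushed libraries pooled, 2 members had all 6 crushed libraries above both uncrushed ones and 10 below (28.2% and 27.0% of genes tested). From day 3 to day 7, 4 rose (Angpt1, Vegfa, Tek and Pdgfrb) and 2 fell (10.2% and 10.7%). The 2 that fell, Flt1 and Cspg4, were not called without replicate 2 of day 3 or of day 7. Flt1 was also lost without replicate 1 of day 7, with upper quartile scaling and with the replicate block. The rise of Vegfa from day 3 to day 7 was not called without replicate 1 of day 3.

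Angpt1, the Tek agonist, showed the largest rise. It lay at 0.163 and 0 in uncrushed Schwann cells, which are 7 and 0 counts, at 0.775 and 0.349 at day 3, at 3.74 and 3.56 at day 5 and at 5.59 and 4.58 at day 7. No library after crush overlapped the uncrushed pair, and the groups of days 3, 5 and 7 did not overlap each other. The log2 changes were 2.80 ± 0.59 (adjusted p = 0.00293), 5.49 ± 0.49 (1.27e-05) and 6.18 ± 0.48 (7.65e-06), though the few counts at the start leave their size poorly fixed. Day 7 exceeded day 3 by 3.38 ± 0.34 (adjusted p = 0.00016). The gap to whole nerve narrowed from -5.69 ± 0.42 in uncrushed samples to -0.51 ± 0.23 at day 7, which did not pass edgeR's test (adjusted p = 0.074) but did pass that of DESeq2.

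Angpt2, its competitor, went the other way. It fell from 3.74 and 3.25 to 0.453 and 0.546 at day 3, then lay at 0.274 and 0.110 at day 5, then 0.231 and 0.110 at day 7. The 6 crushed libraries were all below both uncrushed ones. Changes were -2.76 ± 0.41 (adjusted p = 0.000365), -4.12 ± 0.46 (6.1e-05) and -4.25 ± 0.48 (8.35e-05), the last a 19.1-fold drop. The ratio of Angpt1 to Angpt2 within a library was at most 0.0435 in uncrushed cells, 0.639 and 1.71 at day 3, and between 13.6 and 41.6 at days 5 and 7.

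The 2 VEGF ligands with sizeable levels parted in the same way. Vegfa fell from 14.3 and 14.7 to 4.86 and 5.64 at day 3, with 6.61 and 7.86 at day 5, then 9.40 and 9.07 at day 7. The 4 pairs did not overlap, and the level at day 7 was above that of day 3 but under the uncrushed one. Its changes were -1.36 ± 0.14 (adjusted p = 3.75e-05), -0.97 ± 0.14 (0.000353) and -0.64 ± 0.14 (0.00471), and day 7 exceeded day 3 by 0.72 ± 0.14 (adjusted p = 0.00663). Vegfb rose from 16.3 and 13.2 to 40.6 and 32.5 at day 3, 28.5 and 26.6 at day 5, then 28.8 and 30.2 at day 7. The rise was 1.34 ± 0.14 at day 3 (2.53-fold, adjusted p = 4.08e-05) and 1.03 ± 0.14 at day 7 (adjusted p = 0.000343). The ratio of Vegfb to Vegfa, 0.897 and 1.13 in uncrushed cells, was 5.76 and 8.35 at day 3 and 3.07 to 4.31 later.

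Among the other ligands, Apln, the peptide that activates Aplnr on sprouting endothelium, fell from 3.14 and 2.47 to between 1.03 and 1.74 in the 6 crushed libraries, by 1.08 ± 0.26 at day 3 (adjusted p = 0.00644) and by 1.33 ± 0.27 at day 7 (adjusted p = 0.0031). Its call at day 3 was lost without uncrushed replicate 1 (-0.90). The call at day 5 was lost without that library (-0.76) or without replicate 2 of day 5 (-0.66). Vegfc, the lymphatic growth factor, Pgf, a ligand of Flt1, and Pdgfb held 0 to 10 counts in every Schwann cell library and were not tested over time.

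**Figure D3:**
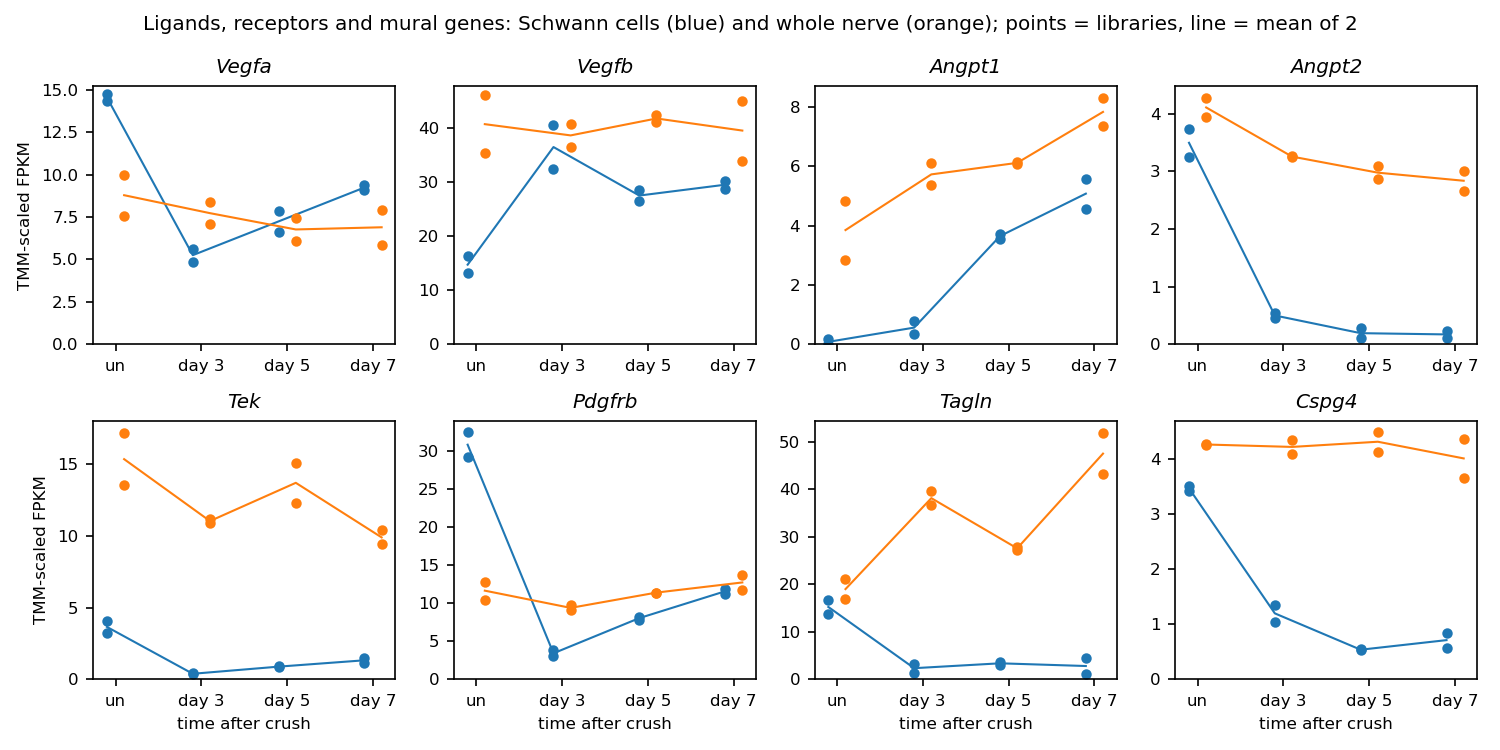
TMM-scaled FPKM of 8 genes in uncrushed nerve and at days 3, 5 and 7 after crush, with Schwann cells in blue, whole nerve in orange, a point per library and a line through the mean of 2. In Schwann cells Angpt1 climbs to 5.59 and 4.58 while Angpt2, Tek, Pdgfrb, Tagln and Cspg4 drop after crush, and whole nerve Tagln climbs to 51.9 and 43.2.

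Of the 3 receptors that could be tested in Schwann cells, Tek and Kdr fell. Tek, the receptor of both angiopoietins, went from 4.09 and 3.20 to 0.343 and 0.399 at day 3, 0.834 and 0.906 at day 5, then 1.15 and 1.48 at day 7, with no overlap between any 2 of the 4 groups. The drop was -3.20 ± 0.24 at day 3 (9.17-fold, adjusted p = 3.46e-06) and -1.45 ± 0.21 at day 7 (adjusted p = 0.000464), and day 7 exceeded day 3 by 1.75 ± 0.24 (adjusted p = 0.000922). Kdr, the main VEGF receptor, fell by 1.21 ± 0.41 at day 3 (adjusted p = 0.031), and by 2.09 ± 0.44 at day 5 and 1.64 ± 0.43 at day 7. Without replicate 2 of day 3 its change at day 3 was -2.21, and without any of the other 3 libraries compared it was -0.71 to -1.25 and no longer called (adjusted p from 0.0734 to 0.0973). At day 7 the call was lost without replicate 2 of that day (adjusted p = 0.0601). Vwf, the clotting factor stored by endothelium, fell by 3.71 ± 0.47, 6.52 ± 0.63 and 4.16 ± 0.51, from 72 and 82 counts to 1 to 15. The day 5 pair held 2 Vwf counts in all, under the floor of 3, so the size of that fall is not fixed. The extracellular matrix member Mmrn2 fell at day 5 only by the test (-1.73 ± 0.66, adjusted p = 0.0484), as did Clec14a, an endothelial surface lectin, at day 3 (-2.47 ± 0.89, adjusted p = 0.0398), both on 17 counts or fewer in each library and neither called by DESeq2 or without any 1 of the 4 libraries compared. Flt1, the decoy receptor for VEGF, had a change of 1.84 ± 0.72 at day 3 (adjusted p = 0.0555), and 0.40 without replicate 2.

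Of the 8 mural genes 7 could be tested in Schwann cells, and 3 fell on every day. Pdgfrb went from 32.5 and 29.2 to 3.03 and 3.77 at day 3, 8.24 and 7.83 at day 5, then 11.2 and 11.9 at day 7. The 4 pairs were separate, with the lowest level at day 3. The drop was -3.14 ± 0.13 at day 3 (8.82-fold, adjusted p = 1.15e-07) and -1.40 ± 0.12 at day 7 (adjusted p = 1.54e-05), and day 7 exceeded day 3 by 1.74 ± 0.13 (adjusted p = 2.6e-05). Tagln, an actin-binding protein of contractile cells, fell from 13.7 and 16.8 to between 1.16 and 4.36, by 2.64 ± 0.51, 2.19 ± 0.50 and 2.39 ± 0.51. Cspg4, the proteoglycan NG2 of pericytes and glial precursors, fell from 3.41 and 3.51 to 1.04 and 1.34 at day 3 and to between 0.527 and 0.844 later (-1.49 ± 0.19, -2.67 ± 0.21 and -2.25 ± 0.21).

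Acta2, the actin of smooth muscle, Myh11 and Abcc9 were lower in each Schwann cell library than in any of whole nerve. In Schwann cells Acta2 lay at 0.172 to 2.13, Myh11 at 0.443 to 1.04 and Abcc9, a channel subunit of pericytes, at 0.107 to 0.707, against 32.8 to 59.3, 4.60 to 9.76 and 12.8 to 22.3 in whole nerve. None of these, nor Rgs5, passed the test on any day in Schwann cells. The ratio of Tagln to Acta2 was 18.4 and 21.2 in uncrushed Schwann cells and 0.400 and 0.530 in uncrushed whole nerve. Of 4 fibroblast markers, Col1a1 was the one that passed in Schwann cells at day 3 (-0.67 ± 0.17, adjusted p = 0.00766). The summed fibroblast markers were 311 and 315 in uncrushed Schwann cells and 142 to 234 after crush, against 4508 to 5688 in whole nerve. Of 3 perineurial markers, Cldn1 was 0.264 to 1.36 in Schwann cells and 99.2 to 192 in whole nerve. Itgb4, another of the 3, fell in Schwann cells at day 3 (-1.09 ± 0.09, adjusted p = 6.5e-06). The perineurial sum was 96.0 and 96.3 in uncrushed Schwann cells and 43.7 to 49.4 after crush, against 123 to 240 in whole nerve. Their part in the falls of Pdgfrb and Tagln was not tested.

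In whole nerve all 36 members could be tested, and the question was how vessels of the injured nerve changed. At day 3, 8 rose and 7 fell (23.1% and 22.5% of 15831 genes tested), at day 5, 5 and 5 (18.9% and 19.5%), and at day 7, 2 and 10 (15.4% and 15.9%). With crushed libraries pooled, 5 members had all 6 crushed libraries above both uncrushed ones and 5 below. Over all genes tested these shares were 26.9% and 17.3%, so such separation was common. Sizes were modest, with every change of the 36 genes at day 3 inside 1 log2 unit. Deposited FPKM put changes in whole nerve higher by a median of 0.41 on each day. Called falls of about that size would lie near 0 by that scaling. The counts depend on the fit: with all 16 libraries fitted together, which also changes their scaling and the genes tested, 8, 3 and 5 members were called at days 3, 5 and 7 in place of 15, 10 and 12. DESeq2 called 12, 6 and 9. At day 5 the omission of any 1 of the 4 libraries compared left 2 to 6 calls, and each of the 10 genes was lost in at least 1 of these fits. At day 7 the omission of uncrushed replicate 1 or of day 7 replicate 1 left 5, with Abcc9, Angpt2, Erg, Flt1, Myh11, Nos3 and Sox17 lost. At day 3, Abcc9, Erg, Esam, Pdgfrb, Pecam1, Rasip1, Rgs5 and Tek were each lost by the omission of at least 1 library.

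Of 14 endothelial identity genes at day 3, 5 were higher, 1 was lower and 8 did not pass, with a median change of 0.17, and the counts higher and lower were 1 and 1 at day 5 and 0 and 4 at day 7. Eng, a TGF-beta coreceptor of activated endothelium, went from 13.0 and 11.9 to 25.5 and 24.0 at day 3, 15.2 and 13.1 at day 5, then 11.7 and 13.4 at day 7. The day 3 pair stood well above the other 6 libraries. Its rise at day 3 was 0.91 ± 0.11 (1.88-fold, adjusted p = 8.68e-05), and it fell by 1.00 ± 0.11 from day 3 to day 7 (adjusted p = 0.000177). Plvap, which builds the diaphragms of leaky fenestrated vessels, followed the same course, at 3.87 and 3.02, then 6.96 and 6.87 at day 3, and 3.56 and 4.68 by day 7, a day 3 change of 0.93 ± 0.23 (adjusted p = 0.00758). Smaller rises at day 3 were those of Rasip1, a regulator of vessel lumens (0.64 ± 0.23), Esam, a junction molecule (0.41 ± 0.14), and Pecam1 (0.37 ± 0.11), with adjusted p of 0.0418, 0.0345 and 0.0209. These 3 were not called by DESeq2 at day 3. Mmrn2 was at 1.39 and 1.52 in uncrushed nerve and between 1.81 and 2.51 in the crushed libraries, all above, and passed at day 5 (0.55 ± 0.19, adjusted p = 0.0445), a call that DESeq2 did not make.

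Transcription factors of endothelium did not rise by the test. Erg, the ETS factor that keeps endothelial identity, fell by 0.63 ± 0.15 at day 3 (adjusted p = 0.00702), from 19.9 and 15.7 to 14.0 and 10.6, and was at 18.9 and 18.2 at day 5, then 12.2 and 13.9 at day 7, where it was again lower (-0.57 ± 0.15, adjusted p = 0.0184). Sox17, an arterial factor, was lower at day 7 (-0.40 ± 0.12, adjusted p = 0.0315), and Sox18 passed on no day. Nos3, the endothelial nitric oxide synthase, was at 1.09 to 1.53 until day 5 and at 0.625 and 0.794 at day 7 (-0.95 ± 0.26, adjusted p = 0.02). At day 7 DESeq2 called neither Sox17 nor Nos3. Vwf was lower in all 6 crushed libraries than in both uncrushed ones, by 0.62 ± 0.15 at day 5 and 0.73 ± 0.15 at day 7. Emcn, Egfl7 and Clec14a passed on no day.

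Receptors moved in both directions. Tie1, the orphan partner of Tek, and Aplnr, the apelin receptor of veins and sprouts, rose at day 3 by 0.58 ± 0.14 and 0.79 ± 0.19 (adjusted p = 0.0067 and 0.00671). Tie1 stood at 4.67 and 3.93, then 7.00 and 6.50 at day 3, 6.78 and 5.89 at day 5, then 4.93 and 5.21 at day 7, so that every crushed library was above both uncrushed ones. Aplnr stood at 6.03 and 4.87, 10.4 and 9.53 at day 3, 10.8 and 7.04 at day 5, then 4.94 and 5.54 at day 7, and overlapped the uncrushed pair at day 7 only. Kdr and Tek fell instead. Kdr went from 13.3 and 12.3 to 8.36 and 8.83 at day 3, 11.1 and 9.42 at day 5, then 7.93 and 7.81 at day 7, all below the uncrushed pair, with changes of -0.64 ± 0.10 (adjusted p = 0.0005), -0.42 ± 0.10 (0.00837) and -0.80 ± 0.10 (0.000223). The fit of all 16 libraries did not call Kdr at day 5. Tek was lower at day 3 (-0.56 ± 0.13) and day 7 (-0.74 ± 0.13), with adjusted p of 0.00599 and 0.00201. Flt1 was lower at day 7 (-0.47 ± 0.12, adjusted p = 0.0149), and Flt4, with 15 to 45 counts a library, passed on no day.

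From day 3 to day 7 in whole nerve, 7 members fell and 1 rose (11.4% and 9.85% of genes tested). All 7 that fell were endothelial: Pecam1, Esam, Eng, Nos3, Plvap, Tie1 and Aplnr, by 0.39 (Pecam1) at the least. DESeq2 called 4 of these 8 members, the fit of all 16 libraries 3, and fits without any 1 of the 4 libraries 2 to 4. The single rise was that of Pdgfrb (0.41 ± 0.12, adjusted p = 0.0323), which had been lower at day 3 than in uncrushed nerve (-0.38 ± 0.12, adjusted p = 0.0267). Each of these calls of Pdgfrb was lost in 3 of the 4 fits that omit a library.

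**Figure D4:**
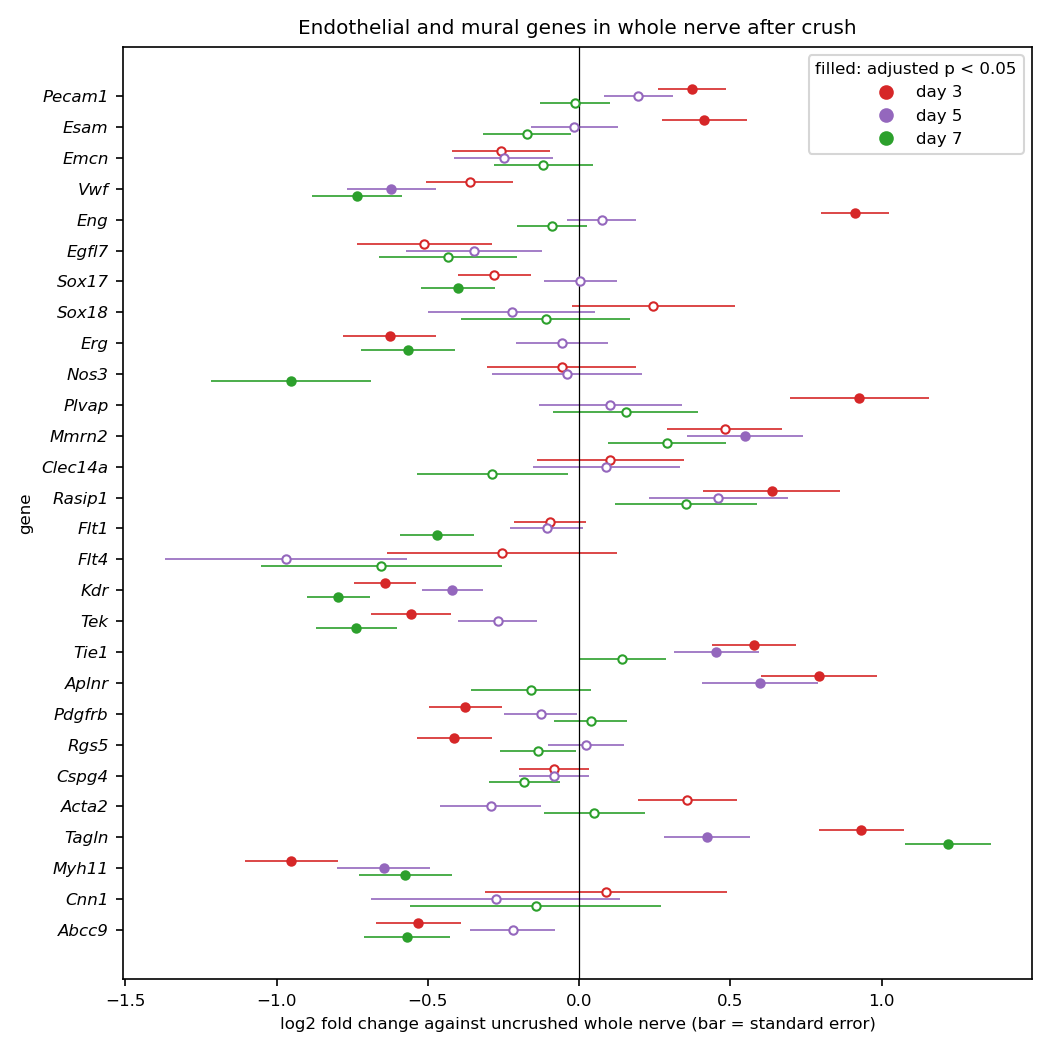
Log2 fold change against uncrushed whole nerve for the 28 endothelial and mural members at days 3 (red), 5 (purple) and 7 (green), with bars of 1 standard error and filled points where the adjusted p was under 0.05. Eng and Plvap are near 0.9 at day 3 alone, Kdr is below 0 on every day, and Tagln (up to 1.22) and Myh11 (down to -0.95) lie on opposite sides.

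Mural genes of whole nerve also divided. Tagln rose from 21.1 and 16.8 to 39.7 and 36.6 at day 3, 27.3 and 27.9 at day 5, then 51.9 and 43.2 at day 7, by 0.93 ± 0.14 (adjusted p = 0.000373), 0.42 ± 0.14 (0.0395) and 1.22 ± 0.14 (0.000103). All crushed libraries were above the uncrushed pair, and the rise at day 5 was not called by DESeq2. Myh11, the myosin heavy chain of smooth muscle, fell on the same days, from 9.76 and 7.20 to between 4.60 and 6.86, by 0.95 ± 0.15 at day 3 (adjusted p = 0.000593), 0.65 ± 0.15 and 0.57 ± 0.15. Rgs5, the most abundant member per length in whole nerve, was at 300 and 229, then 207 and 208 at day 3, with 242 to 296 afterwards, and was lower at day 3 (-0.41 ± 0.13, adjusted p = 0.021). Abcc9 was lower at day 3 (-0.53 ± 0.14) and day 7 (-0.57 ± 0.14). Acta2, Cspg4 and Cnn1, a calponin, passed on no day.

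The median change of the 8 ligands in whole nerve was -0.30, -0.43 and -0.48 at days 3, 5 and 7. At day 3, 0 of 8 were called by edgeR, 0 by DESeq2, and 2 had an unadjusted edgeR p under 0.05. Angpt1 rose from 4.85 and 2.86 to 6.10 and 6.15 at day 5, then 7.38 and 8.30 at day 7, by 0.66 ± 0.16 (adjusted p = 0.00891) and 0.88 ± 0.16 (0.0021), with 0.42 ± 0.16 at day 3 (adjusted p = 0.0527). Angpt2 was lower at day 5 (-0.56 ± 0.18) and day 7 (-0.63 ± 0.18), calls that DESeq2 did not make. Apln was lower at day 5 (-0.78 ± 0.24, adjusted p = 0.0246). Vegfa had a change of -0.21 ± 0.19 at day 3 (adjusted p = 0.397), and Vegfa, Vegfb, Vegfc, Pgf and Pdgfb passed on no day. Pgf, on 6 to 26 counts a library, lay at 1.08 and 1.85 in uncrushed nerve and between 0.278 and 0.909 in the crushed libraries, all below, with a change of -1.35 ± 0.57 at day 5 (adjusted p = 0.0888).

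Whether a change after crush differed between Schwann cells and whole nerve was tested as the difference of the log2 changes in the fit of 16 libraries. At day 3, 6 members had a more positive change in Schwann cells and 9 a more negative one (12.3% and 13.7% of 16829 genes), and at day 7, 2 and 7 (11.6% and 14.4%). For Tagln, which fell in Schwann cells and rose in whole nerve, the difference was -3.64 ± 0.49 at day 3 (adjusted p = 8.12e-05). For Angpt1 it was 5.18 ± 0.50 at day 7 (adjusted p = 5.04e-06), for Pdgfrb -2.87 ± 0.18 at day 3 (adjusted p = 8.34e-08), for Vegfb 1.38 ± 0.23 at day 3 (adjusted p = 0.000459) and for Vegfa -1.26 ± 0.25 at day 3 (adjusted p = 0.00168). Without replicate 2 of day 3 in Schwann cells, 9 of the 15 members of day 3 were still called, and Clec14a, Erg, Flt1, Myh11, Pecam1 and Sox18 were not. Of these, Erg turned from 5.13 to -1.93, Flt1 went from 1.91 to 0.38, Clec14a from -2.64 to -3.43 and Myh11 from 1.40 to 1.15 (adjusted p = 0.0522). Sox18 had no count in either day 3 Schwann cell library and Pecam1 none in either uncrushed one, so their fitted differences have no fixed size. Clec14a, Erg, Flt1, Pecam1 and Sox18 were each also lost by the omission of at least 1 other library.

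Related genes from further lists give the surroundings, and each name below is the highest or the lowest called one of its list at day 3 unless said otherwise. Over all genes tested at day 3, 23.1% rose and 22.5% fell in whole nerve and 26.9% and 25.7% in Schwann cells, against which the counts of these short lists are to be read. Of 8 blood-nerve barrier genes in whole nerve, 0 rose and 6 fell at day 3, 7 fell at day 5 and 5 at day 7 (19.5% and 15.9% of all genes on the later days), with medians of -0.61, -0.94 and -0.54. Mfsd2a, a lipid transporter that restrains transcytosis, fell from 4.47 and 5.48 to 1.67 and 1.60 at day 3 (-1.66 ± 0.24, adjusted p = 0.000287), and Tjp1, a tight junction scaffold, by 0.32 ± 0.10. Cldn5, the tight junction claudin of endothelium, given as a cell type marker and not as an extreme of its list, went from 16.6 and 17.8 to between 7.49 and 10.2 in the crushed libraries (-1.13 at day 3). Mfsd2a also fell in Schwann cells, by 3.11 ± 0.52. Of 6 activated and venous endothelial genes in whole nerve, 4 rose and 0 fell at day 3, from Icam1 (0.45 ± 0.15), an adhesion molecule for leukocytes that DESeq2 did not call, to Sele, the selectin that captures leukocytes (3.11 ± 0.50, adjusted p = 0.000586). Sele had low levels, 0.0882 and 0.0651 in uncrushed nerve and 0.654 and 0.795 at day 3. In Schwann cells Icam1 and Vcam1 fell instead, by 1.79 ± 0.10 and 3.22 ± 0.49. Macrophage markers stood beside these changes, with sums of 145 and 162 in uncrushed whole nerve and 310 to 521 after crush, and their part was not tested.

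Among 20 further endothelial genes, 2 rose and 7 fell of 19 tested in whole nerve at day 3, between Gja5, an arterial connexin (0.77 ± 0.20), and Ecscr, a surface protein of endothelium (-1.45 ± 0.21). Among 10 of them tested in Schwann cells 2 rose and 2 fell, between Sox7, a vascular transcription factor (4.45 ± 0.59), and Ecscr (-2.13 ± 0.59). Of 19 further mural genes in whole nerve 2 rose and 8 fell, between Actg2, a smooth muscle actin (0.93 ± 0.30), and Vtn, the matrix protein vitronectin (-2.09 ± 0.20). In Schwann cells 2 of 8 rose and 3 fell, between Heyl, a Notch target (4.83 ± 0.45), and Mylk, the myosin kinase (-3.62 ± 0.38). Of 3 lymphatic genes in whole nerve, Lyve1, which macrophages can also carry, was the highest at 1.33 ± 0.09 and Prox1, the factor of lymphatic identity, the lowest at -0.77 ± 0.16, and in Schwann cells they changed by 2.56 ± 0.47 and -0.95 ± 0.16.

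Of 15 further angiogenic ligands, receptors and inhibitors in whole nerve, 7 rose and 2 fell at day 3. The range ran from Thbs1, the angiogenesis inhibitor thrombospondin (1.90 ± 0.17), to Fgf1, an endothelial mitogen (-4.14 ± 0.16). In Schwann cells 3 of 14 rose and 4 fell, between Pdgfa, a PDGF ligand (1.98 ± 0.13), and Fgf1 (-4.11 ± 0.23). Of 13 hypoxia response genes, which share the pathway that induces Vegfa, 4 rose and 5 fell in whole nerve at day 3 and 3 rose and 4 fell in Schwann cells. Pgk1, a glycolytic enzyme, was the highest of these in both (1.25 ± 0.12 and 2.06 ± 0.10) and Ndrg1, also a gene of myelinating Schwann cells, the lowest (-2.68 ± 0.11 and -1.13 ± 0.13).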

How the data were processed

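RNA of purified Schwann cells and whole sciatic nerve was sequenced in 16 libraries, grouped by their titles. The authors synthesised amplified cDNA with a kit that does not mark strand, so reads of a gene and of an antisense partner cannot be told apart. Per the labels, reads were processed with CASAVA and STAR and quantified with RSEM on Rnor_6.0. The expected counts, FPKM and TPM were deposited by the authors per gene, unfiltered. A deposited table of gene modules has 8 columns of per-sample values, which were left unused, and it holds no comparison used here. All reads of a gene count toward it, without molecular identifiers, so floors and intervals cover counting error only.

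After rounding, the expected counts entered edgeR 4.0.16 in R 4.3.3 (TMM, filterByExpr, quasi-likelihood F test, Benjamini-Hochberg adjustment, threshold 0.05) in fits of the 8 Schwann cell, the 8 whole nerve and all 16 libraries. The SE is the size of the log2 change over the square root of F. Levels were computed from the deposited expected counts as TMM-scaled FPKM, a choice made after seeing the data. Totals ran from 10555067 to 27562637 counts, so a level under 3 counts was read as a floor. DESeq2 1.42.0, upper quartile scaling, no count filter, 1 fit of all libraries, omission of each library and a replicate block were the alternatives, and the fits were tested on simulated data. Sequences came from RefSeq promoters of GRCr8, matched by symbol. All members were reported by role, and of each further list the highest and the lowest called gene at day 3 in each tissue. The members and lists were chosen with earlier results of these data known.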

Additional observations from a re-analysis of the deposited data

Results flagged for a closer look

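The change after crush differed between Schwann cells and whole nerve for 24 pairs of member and day, by the test of the difference in the fit of all 16 libraries. At day 3 these were 6 members with a more positive change in Schwann cells and 9 with a more negative one (12.3% and 13.7% of 16829 genes tested). At day 7 they were 2 and 7 of the 36 (11.6% and 14.4%), so such differences were common among all genes. Each value is the log2 change in Schwann cells minus that in whole nerve, with edgeR's adjusted p under 0.05. Among ligands, it was 2.27 at day 3 and 5.18 at day 7 for Angpt1, 1.38 and 1.05 for Vegfb, and -2.45 and -3.73 for Angpt2. For Vegfa it was -1.26 at day 3. Among mural genes, it was -2.87 at day 3 and -1.55 at day 7 for Pdgfrb, -1.51 and -2.18 for Cspg4, and -3.64 and -3.70 for Tagln. For Myh11 it was 1.40 at day 3, or 1.15 (adjusted p = 0.0522) without replicate 2 of day 3 in Schwann cells.

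Among receptors and endothelial genes, it was -2.74 at day 3 and -0.84 at day 7 for Tek (a day 7 call lost by the omission of any of 4 of the 8 libraries compared, with values of -0.64 to -0.76), and -3.41 and -3.52 for Vwf. For Mmrn2 it was -2.09 at day 7. At day 3 it was 6.40 for Pecam1, 5.13 for Erg, 1.91 for Flt1, -4.98 for Sox18 and -2.64 for Clec14a. Sox18 had 0 counts in both day 3 Schwann cell libraries and Pecam1 0 in both uncrushed ones, so these 2 values are set by the prior count of the fit and are no bounds. Erg had 1 count in the uncrushed pair. None of the 5 was called without replicate 2 of day 3, where Flt1 stood at 0.38, Erg at -1.93 and Clec14a at -3.43, and each was also lost without at least 1 other library. DESeq2 called neither Erg nor Flt1. The macrophage markers of replicate 2 summed to 12.6 TMM-scaled FPKM against 2.43 in replicate 1, and their part in the differences was not tested. Groups of 2 libraries are too small for a test of single outlying samples.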

How the results depend on the processing

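One result changed direction: the difference between tissues for Erg at day 3 (5.13) was -1.93 without replicate 2 of day 3 in Schwann cells, a library with 48 Erg counts against 0, and up to 7.68 without another. In counts of members called, DESeq2 gave 6 in whole nerve at day 5 (from 10) and 4 from day 7 to day 3 (from 8). One fit of all 16 libraries gave 8, 5 and 3 in whole nerve at days 3, 7 and 5, 3 between days 7 and 3, and 12 between these days in Schwann cells (from 6). It also moved the share of higher calls over all genes in whole nerve at day 7 from 49.3% to 60.8%, with 2 members higher and 3 lower. Without a count filter, 35 members could be tested in Schwann cells and 13 were called between days 7 and 3, and 15 differed between tissues at day 7 (from 9). Members with a higher mean in Schwann cells numbered 4 uncrushed, 0 at day 3, 1 at day 5 and 1 at day 7 by deposited FPKM. TPM gave 6 uncrushed, 1 at day 3 and 2 at day 7, and TMM-scaled FPKM, added after the data were seen, 2 uncrushed. The causes of these shifts were not tested.

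Without 1 library each, 2 to 6 members were called in whole nerve at day 5, 5 to 11 at day 7 and 2 to 4 between days 7 and 3, and between these days 1635 to 2516 genes in whole nerve and 1533 to 2182 in Schwann cells. Upper quartile scaling shifted the median of all genes between tissues by 0.14 at day 5 and 0.10 at day 7. Same-numbered replicates did not deviate together (correlations from -0.058 to 0.084 over all pairs of groups), so the numbers were not taken to pair the samples. With the replicate block 11 of 12 members called at day 3 in Schwann cells were called, all but Clec14a, and 14 of 15 in whole nerve, all but Rasip1. Depth was lowest for Pgf, Pdgfb, Cnn1 and Flt4 among members in whole nerve, and Pgf had 6 to 26 counts a library.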
